A study of Mus musculus with 8 samples.

Results

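The genes described here were 5 bone morphogenetic protein (BMP) ligands (Bmp2, Bmp4, Bmp5, Bmp6 and Bmp7), the type I receptor Bmpr1a, and the 4 Id genes (Id1, Id2, Id3 and Id4). They were a named list of 10 of the 24980 gene symbols in the count table, and all 10 passed the filter on low counts, as did 17582 genes in all. The list was selected on measured levels of these genes in the same 4 groups of libraries, and Bmp4 is also in a gene list that the study drew from them. The levels and fold changes of the 10 genes are therefore given as a description, with no test. RNA was sequenced from mouse skeletal myogenic cells in 8 libraries, 2 biological replicates in each of 4 groups. TF cells were myogenic progenitors sorted fresh from teratomas, the mixed-tissue tumors formed by 1 line of mouse embryonic stem cells (E14-EGFP) in irradiated and cardiotoxin-injured tibialis anterior muscles of NSG-mdx4Cv mice, which are immunocompromised and lack dystrophin. TE cells were teratoma-derived progenitors at passage 8 in culture. SF cells were freshly isolated endogenous satellite cells of adult mice, the resident stem cells of muscle, and SE cells were satellite cells at passage 8. The teratoma-derived cells were sorted as negative for CD31 and CD45 and positive for α7-integrin and VCAM-1. The exact age and the strain of the mice that gave the satellite cells, their sort gate, and whether TE and TF libraries came from the same cells are not given in the sources used here. No group carried a gene deletion or a drug treatment by its labels.

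BMPs are secreted dimers that bind type I and type II receptor kinases at the cell surface. The activated receptors phosphorylate Smad1, Smad5 and Smad9, which enter the nucleus with Smad4 and switch on target genes, with the Id genes among the best known. Id proteins bind E proteins such as Tcf3 and keep them from pairing with MyoD, and BMP signaling is known to hold myogenic cells back from differentiation while they divide.

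Promoter sequence is shown for Bmp4, the ligand that stood apart from its family in TE, and for Id4, the Id gene with the fewest reads there. Of the 10 genes, 7 had a promoter window in the RefSeq table for GRCm38.p6, and Bmp2, Bmp7 and Id1 did not. The windows of the other 5 reached into exons of the GENCODE M21 annotation and are not printed. The 250 bases before the RefSeq start of Bmp4 lie on the minus strand at chr14:46390670-46390919, upstream of the first exon. Capitals in the Bmp4 line mark the E-box CANNTG, a general motif that includes the sites of MyoD and E protein pairs. The window of Id4 lies on the plus strand at chr13:48260866-48261115, and the GENCODE gene Id4 begins downstream of it, at position 48261228. Capitals in the Id4 line mark GGCGCC, a GC-rich element of BMP-responsive promoters that binds Smads.
Bmp4: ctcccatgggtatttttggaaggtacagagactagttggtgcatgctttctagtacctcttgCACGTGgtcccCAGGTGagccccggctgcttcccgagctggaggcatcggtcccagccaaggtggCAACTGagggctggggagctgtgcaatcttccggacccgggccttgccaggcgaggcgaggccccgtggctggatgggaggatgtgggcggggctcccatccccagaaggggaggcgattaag
Id4: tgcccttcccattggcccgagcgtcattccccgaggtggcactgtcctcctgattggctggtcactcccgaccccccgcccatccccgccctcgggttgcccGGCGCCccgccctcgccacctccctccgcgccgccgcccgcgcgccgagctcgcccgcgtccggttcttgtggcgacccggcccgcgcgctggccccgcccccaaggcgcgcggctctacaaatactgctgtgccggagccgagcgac

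The E-boxes of the Bmp4 window began 188, 177 and 123 bases before the start. The GGCGCC of the Id4 window began 148 bases before the start, and 9.59% of the 32851 promoter windows of this length held that motif. CANNTG, which reads the same on both strands in this form, was in 66.2% of windows, and CAGAC, searched on both strands, was in 42.2%. No CAGAC was found in the windows of Bmp4 and Id4. These matches describe letters in the sequence, and nothing is drawn from them about binding.

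Each level is a normalized count, the deposited estimated count divided by the library's median-ratio size factor. Library totals were 11930961 to 21146632 counts. A floor of 3 counts corresponded to 2.15 to 3.89 normalized counts, covering counting error only. Estimated counts of Bmp4, Bmp5 and Bmp7 were not whole numbers, as arises when reads are divided among transcripts, while those of the other 7 genes were whole. A fold change is a log2 estimate from 1 fit over the 4 groups with its standard error (s.e.), and a gene was called at an adjusted p under 0.05 and a log2 fold change beyond 0.32 in either direction, the thresholds of the study. Expressed against TMM, median-ratio scaling shifted the median of all genes by -0.19 for SE against SF, -0.16 for TF against SF and 0.14 for the difference between effects. On TMM-scaled CPM, 8 of the 10 genes kept the order of their group means, and Bmp4 and Id1 exchanged TF and SF. With 2 libraries a group, leaving out 1 of them moved some folds by more than 1.5 times.

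Among the ligands, Bmp4 was the one that stayed high in TE. It encodes a ligand that patterns mesoderm and regulates satellite cell division. Its normalized counts were 1030 and 1467 in TF, 645.5 and 730.5 in TE, 1183 and 1562 in SF, and 28.0 and 8.10 in SE. Both TE libraries thus lay below both TF libraries but far above both SE libraries, and the fresh groups overlapped. The group means were 1249 ± 309 in TF, 688 ± 60.1 in TE, 1372 ± 269 in SF and 18.05 ± 14.1 in SE (SD, n = 2). The mean in TE was 38.1 times that in SE. The mean after expansion was 76.0-fold lower in satellite cells and 1.82-fold lower in teratoma-derived cells.

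On the log2 scale of the fit, Bmp4 differed by -0.80 (s.e. 0.37) for TE against TF, by -6.04 (s.e. 0.48) for SE against SF, by 0.02 (s.e. 0.37) for TF against SF, and by 5.25 (s.e. 0.47) for TE against SE. The difference between both effects of expansion was 5.23 (s.e. 0.59). The SE replicates of Bmp4 were far apart, and its TE against SE estimate was 6.48 without SE replicate 1 and 4.65 without SE replicate 2. The SE against SF estimate was -7.24 and -5.42 without the same libraries, and the difference between effects was 6.46 and 4.62.

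Bmp6, a ligand with a strong role in iron control through hepcidin, was the most abundant ligand by length-adjusted level in TF. Its normalized counts were 2691 and 3728 in TF, 87.6 and 126.4 in TE, 1921 and 2059 in SF, and 15.0 and 8.58 in SE. Bmp6 was thus low in both expanded groups, with TE above SE and no overlap between any of the groups. Expansion differed by -4.85 (s.e. 0.30) in teratoma-derived cells and by -7.17 (s.e. 0.36) in satellite cells, and TE exceeded SE by 3.17 (s.e. 0.34). Bmp4 and Bmp6 were the 2 ligands with more counts in TE than in SE.

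Bmp2, Bmp5 and Bmp7 had the opposite order in the expanded cells, with TE below SE. Bmp2, the closest relative of Bmp4 and a strong inducer of bone, had 468.7 and 156.3 normalized counts in TF, 0 and 0 in TE, 603.8 and 737.8 in SF, and 35.8 and 37.8 in SE. No read was assigned to Bmp2 in either TE library, which allows up to 3 counts in each, so its level was at least 137-fold lower in TE than in TF and at least 16.1-fold lower than in SE. Without TF replicate 1 the first of these bounds was 68.5-fold, and without TF replicate 2 it was 206-fold. Expansion of satellite cells differed by -4.00 (s.e. 0.57) for Bmp2. The 2 TF libraries of Bmp2 were far apart, and its TF against SF estimate of -0.95 (s.e. 0.50) was -1.94 without TF replicate 1.

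Bmp5 and Bmp7 encode ligands of the same subgroup as Bmp6, with known roles in skeletal and kidney development. Bmp5 had 510.3 and 580.8 normalized counts in TF, 14.95 and 5.40 in TE, 324.7 and 290.7 in SF, and 35.1 and 30.7 in SE. Bmp7 had 288.7 and 188.2 in TF, 19.8 and 15.75 in TE, 510.5 and 288.1 in SF, and 46.2 and 23.3 in SE. Both genes were low in all 4 expanded libraries, and each TE library lay below each SE library. For Bmp5 the effect of expansion was -5.67 (s.e. 0.52) in teratoma-derived cells, or -6.54 without TE replicate 1, and -3.02 (s.e. 0.45) in satellite cells. For Bmp7 it was -3.71 (s.e. 0.55) and -3.31 (s.e. 0.53). TE against SE was -1.66 (s.e. 0.48) for Bmp5, or -2.55 without TE replicate 1, and -0.97 (s.e. 0.52) for Bmp7, or -0.38 without SE replicate 1, and neither gene was called in that comparison.

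**Figure D1:**
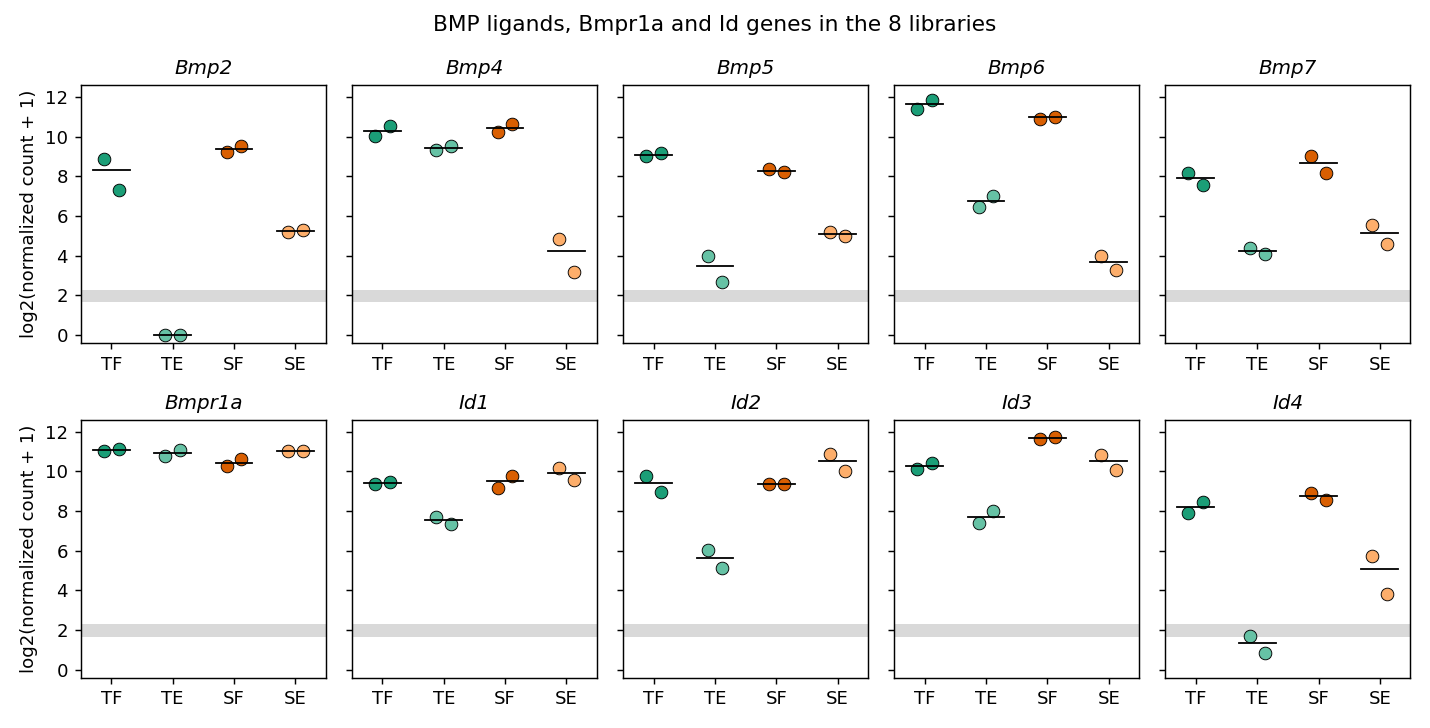
Level of each gene in the 8 libraries, as log2(normalized count + 1), by group (TF and TE, fresh and expanded teratoma-derived cells; SF and SE, fresh and expanded satellite cells). Points are libraries, black lines are at the log2 of the group mean plus 1, and the grey band is the floor of 3 counts. Bmp4 in TE lies near the fresh groups, Bmp2 and Id4 in TE lie at or under the floor, and Bmpr1a is lowest in SF.

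Compared per kilobase of exon, Bmp6 and Bmp4 led the ligands in fresh cells. The mean level per kb was 823 for Bmp6, 556 for Bmp4, 136 for Bmp5, 87.9 for Bmp2 and 59.3 for Bmp7 in TF. In SF Bmp4 was at 610 normalized counts per kb and Bmp6 at 510, and the other ligands were between 76.4 (Bmp5) and 189 (Bmp2). In TE, Bmp4 was at 306 per kb and the next ligand, Bmp6, at 27.4. In SE no ligand exceeded 10.3 per kb, the level of Bmp2, and Bmp4 was at 8.03.

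The summed level of the 5 ligands was 1479 and 1844 normalized counts per kb in TF and 1396 and 1574 in SF. It was 318 and 363 in TE, and 46.6 and 29.9 in SE. Ligand transcripts were thus fewer in both expanded groups, and each TE library held more than each SE library. Bmp4 made up 31.0% and 35.4% of this sum in TF, 37.7% and 44.1% in SF, 90.2% and 89.6% in TE, and 26.7% and 12.1% in SE. The higher ligand sum of TE over SE was therefore Bmp4 in the main. In bulk libraries like these, fewer cells of a type and less RNA per cell cannot be told apart.

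**Figure D2:**
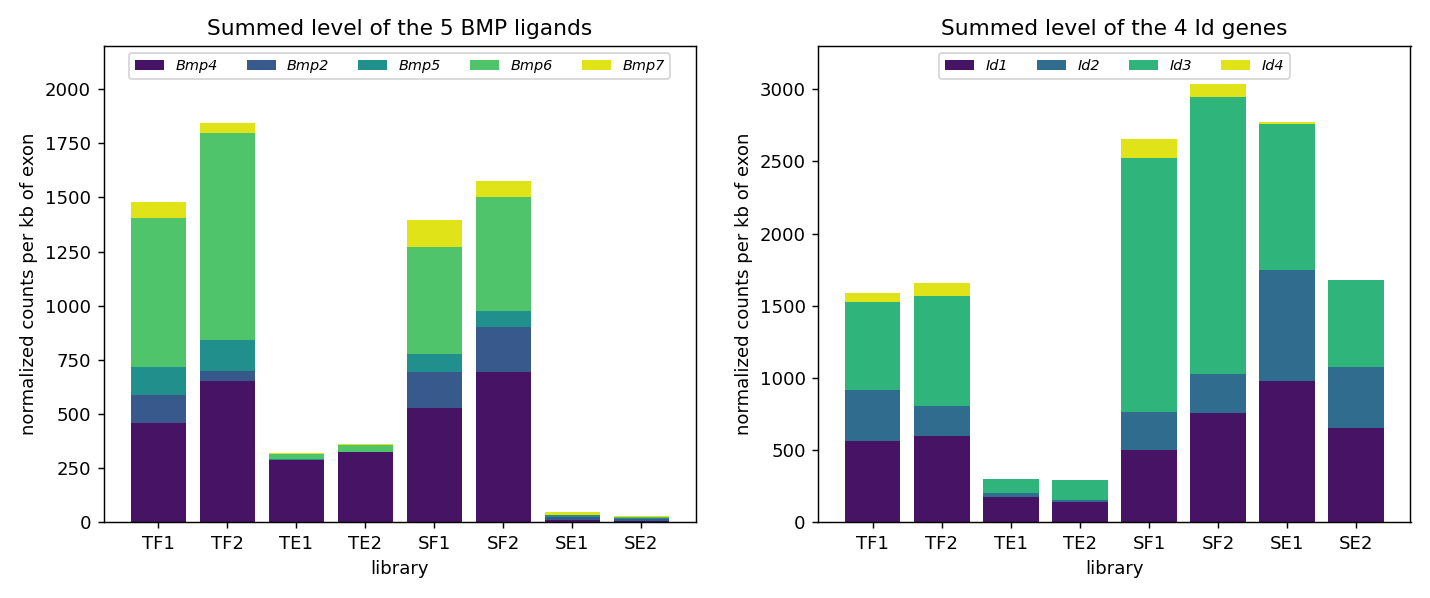
Summed level of the 5 BMP ligands (left) and of the 4 Id genes (right) in each library, in normalized counts per kb of exon, with 1 color for each gene. Bmp4 fills most of the bar in the TE libraries (90.2% and 89.6%), while the Id bars of TE (297 and 292 per kb) are the lowest of the 8 libraries.

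The receptor Bmpr1a, which encodes the type I receptor ALK3 that binds BMP2 and BMP4, varied less than the ligands. It had 2108 and 2260 normalized counts in TF, 1751 and 2134 in TE, 1227 and 1546 in SF, and 2071 and 2047 in SE. SF was the lowest group and did not overlap with the other 3, while the TE libraries overlapped with those of TF and SE. TE against TF was -0.11 (s.e. 0.20) and TE against SE -0.06 (s.e. 0.20), and with 1 library left out these estimates ranged from -0.24 to 0.05 and from -0.21 to 0.09. SE against SF was 0.76 (s.e. 0.20) and TF against SF 0.81 (s.e. 0.20). In TE, Bmp4 and Bmpr1a were both at 306 normalized counts per kb, whereas in SE the receptor was at 324 and Bmp4 at 8.03.

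The Id genes had the opposite order to Bmp4 in expanded cells, lower in TE than in SE for all 4. Id1, a direct and rapid target of BMP Smads, had 649.2 and 692.7 normalized counts in TF, 205.9 and 159.6 in TE, 577.1 and 875.8 in SF, and 1139 and 757.7 in SE. The TE libraries were the lowest 2 of the 8, and the other 3 groups were close, with SF overlapping both TF and SE. Id1 differed by -1.82 (s.e. 0.30) for TE against TF, by 0.57 (s.e. 0.29) for SE against SF, which was not called, and by -2.35 (s.e. 0.31) for TE against SE. The mean in SE, 948.2 ± 269, was 5.19 times that in TE, 182.8 ± 32.8 (SD, n = 2).

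Id2, which also answers to signals other than BMP, had 872.5 and 503.2 normalized counts in TF, 64.4 and 33.9 in TE, 656.1 and 658.0 in SF, and 1869 and 1036 in SE. Both TE libraries lay below all other libraries and both SE libraries above them. Expansion differed by -3.75 (s.e. 0.43) in teratoma-derived cells and by 1.33 (s.e. 0.38) in satellite cells. The difference of these effects was -5.08 (s.e. 0.57), and TE against SE was -4.86 (s.e. 0.45), corresponding to a mean 29.5 times higher in SE.

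Id3, like Id1 a direct BMP target, had 1093 and 1368 normalized counts in TF, 165.5 and 251.3 in TE, 3152 and 3436 in SF, and 1812 and 1071 in SE. SF was the highest group, TF and SE overlapped, and TE was the lowest. Id3 differed by -2.51 (s.e. 0.30) for TE against TF, by -1.0 (s.e. 0.28) for SE against SF, by -1.26 (s.e. 0.29) for TF against SF and by -2.77 (s.e. 0.30) for TE against SE.

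Id4, which differs from the other Id genes in its known roles in neural and germline cells, had 241.5 and 353.1 normalized counts in TF, 2.25 and 0.771 in TE, 482.8 and 368.3 in SF, and 52.2 and 12.9 in SE. The TE values were 3 reads and 1 read, at or under the floor. The ratio of TF to TE was 197 (95% counting interval 76.3 to 725) and that of SE to TE was 22.6 (8.52 to 84.8). With 1 library left out, the first ratio ranged from 133 without TE replicate 2 to 388 without TE replicate 1. The ratio of SE to TE was 8.47 without SE replicate 1, 34.4 without SE replicate 2, 44.5 without TE replicate 1 and 15.3 without TE replicate 2. In satellite cells expansion differed by -3.50 (s.e. 0.64), or by -4.81 without SE replicate 1 and -2.82 without SE replicate 2. Id4 thus resembled Bmp2, with few or no reads in TE and a low level in SE.

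Per kilobase of exon, Id3 led the Id genes in TF (687) and in SF (1839), and Id1 (817) and Id3 (805) were level in SE. In TE, Id1 was at 158 per kb, Id3 at 116, Id2 at 20.2 and Id4 at 0.392. The summed level of the 4 genes was 1591 and 1659 per kb in TF, 297 and 292 in TE, 2652 and 3039 in SF, and 2774 and 1679 in SE. The 2 TE sums were nearly the same, and every other library lay far above them. The SE libraries had the widest spread, with each Id gene higher in SE replicate 1 than in replicate 2.

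**Figure D3:**
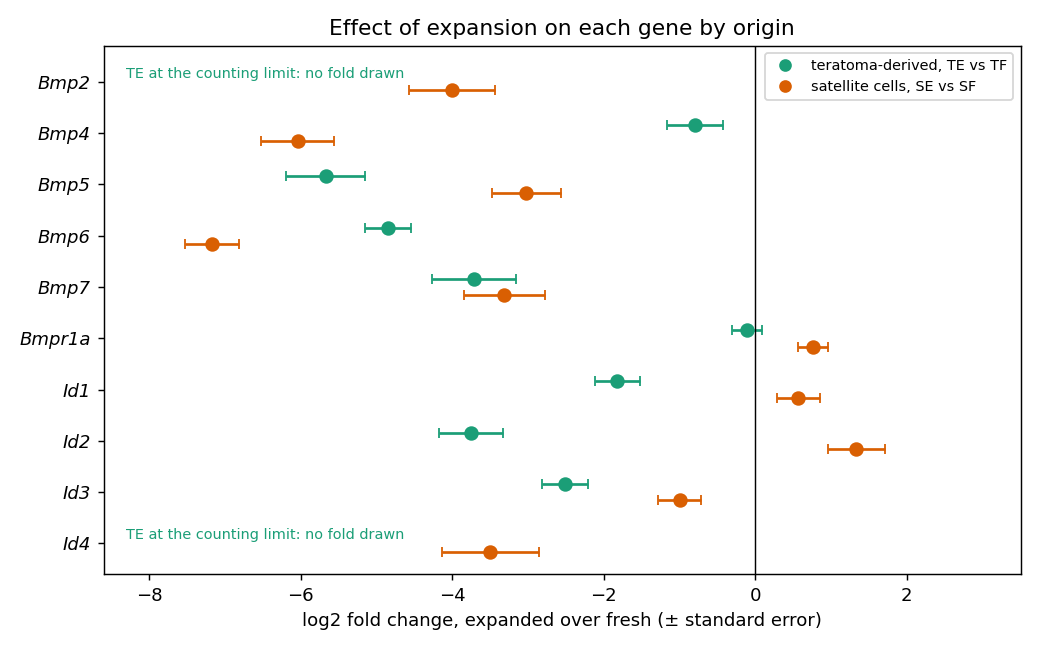
Log2 fold change of expanded over fresh cells for each gene, in teratoma-derived cells (TE over TF) and in satellite cells (SE over SF), with the standard error of the fit as bars. No fold is drawn for Bmp2 and Id4 in teratoma-derived cells, where TE is at the floor of 3 counts. Bmp4 is the ligand nearest 0 in teratoma-derived cells (-0.80), and Id1 and Id2 lie on opposite sides of 0 for the 2 origins.

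The following counts summarize the members in each comparison beside the share called over all 17582 genes, and nothing is read from them because the list was selected on these contrasts. In TE against TF, 8 of the 10 genes were called lower (16.2% of all genes) and 0 higher (9.86% of all genes). All 10 estimates were negative with edgeR and with DESeq2, and Bmp4 and Bmpr1a were the 2 genes not called. With no filter on low counts, and with only the 2 groups fitted, 9 were called lower, Bmp4 among them. In SE against SF, 7 were called lower (19.8% of all genes) and 2, Bmpr1a and Id2, higher (20.9% of all genes). No member was called higher without SF replicate 1, 1 was without SE replicate 1, and 3 were without SF replicate 2. In TF against SF, Bmp6 and Bmpr1a were called higher (15.1% of all genes) and Id3 lower (9.13% of all genes). Over all genes, 2655 were called higher and 1606 lower in that comparison, or 2112 and 1943 with median-ratio size factors, where 2 of the 10 genes were called, 1 in each direction. The count of 3 was 1 without TF replicate 2 or without SF replicate 1.

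In TE against SE, Bmp4 and Bmp6 were called higher (3.15% of all genes) and Bmp2 and the 4 Id genes lower (4.07% of all genes). For the difference between the effects of expansion, Bmp4 and Bmp6 were called higher in teratoma-derived cells (4.7% of all genes) and 6 genes lower (9.62% of all genes), namely Bmp2, Bmp5 and the 4 Id genes. Bmp7 and Bmpr1a were not called, at -0.39 (s.e. 0.70) and -0.87 (s.e. 0.28). Without TF replicate 2 the count was 5 in place of 8. The median log2 difference of the 10 genes was -3.73 for TE against TF, -3.17 for SE against SF, 0.03 for TF against SF and -2.00 for TE against SE, beside -0.18, -0.23, 0.08 and 0.00 over all genes tested. With Bmp2 and Id4 in TE at their bound or counted ratio, these medians did not change. Comparisons that share a group share its libraries and are not independent of each other.

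Sums over markers of other cell types moved with expansion as well, and a single gene can lead such a sum. Col3a1 led the fibro-adipogenic sum in every group, at 8796 and 9937 normalized counts in TE and 13900 and 11860 in SE. Dcn, of the same list, was at 57.7 and 18.5 in TE and 0 and 14.6 in SE. Pdgfra went the other way, at 8.99 and 3.08 in TE and 40.05 and 21.45 in SE. Ly6a did too, at 16.5 and 0 in TE and 58.65 and 67.8 in SE. Dpt, with few reads, was also higher in SE, Cd34 and Pi16 overlapped, and Lum had reads in 1 TE library only. Over 8 fibro-adipogenic markers, among them Col3a1, the summed level was 298000 to 299000 normalized counts in TF, 42300 to 71600 in SF, 8900 to 9970 in TE and 12000 to 14000 in SE. Over 8 endothelial markers it was 1210 to 4330 in TF, 5130 to 6550 in SF, 32.4 to 41.9 in TE and 60.1 to 70.1 in SE, and Kdr, Tie1, Emcn and Cldn5 were at 0 in all 4 expanded libraries. Over 8 haematopoietic markers it was 582 to 5320 in TF, 518 to 612 in SF, 16.5 to 30.8 in TE and 32.9 to 95.3 in SE, and Ptprc, Adgre1 and Tyrobp were at 0 in the expanded libraries. Markers of these cell types were thus higher in fresh libraries, those of CD31 and CD45 positive lineages included, and the part of such cells in the fresh levels of the ligands and Id genes was not tested. TF replicate 1, with the higher Bmp2 level, had the higher endothelial and haematopoietic sums. Between the expanded groups, markers not at 0 went both ways. Pecam1, which encodes CD31, was at 5.99 and 4.63 in TE and 33.6 and 16.3 in SE, and Egfl7 was also higher in SE. Cd68 overlapped, at 9.73 and 25.4 in TE and 17.9 and 91.8 in SE. Tek overlapped too, at 5.99 and 2.31 in TE and 0 and 4.29 in SE. Cdh5 was at 4.49 and 0 in TE and at 0 in SE, and Fcer1g at 0 and 5.40 in TE and 1.43 and 0 in SE. The part of such cells in the TE against SE differences was not tested.

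Over 8 pericyte and smooth muscle markers the sum was 17800 to 19900 in TF, 4840 to 5010 in TE, 30400 to 31000 in SF and 4410 to 4640 in SE, and Kcnj8 was at 0 in the expanded libraries. Notch3 led this sum in every group, at 3226 and 3155 in TE and 2630 and 2322 in SE. Markers under the similar sums of TE and SE went both ways. Rgs5 was at 0 in both TE libraries and at 943.4 and 984.6 in SE. Notch3, Mcam, Myh11 and Abcc9 were higher in TE, and Cspg4 overlapped. Chondrogenic and osteogenic markers summed to 6700 to 10500 in TF, 188 to 195 in TE, 5060 to 5340 in SF and 1000 to 2110 in SE. The lower sum of TE than of SE came mostly from Sox9, at 165.3 and 177.3 in TE and 1893 and 966.2 in SE. Sp7 was also higher in SE. Col2a1 was higher in TE, at 17.2 and 10.8 against 6.44 and 4.29. Alpl and Matn1 had few reads and were not higher in SE, and Acan, Ibsp and Bglap were at 0 in both expanded groups. The 8 myogenic markers summed to 21000 to 26100 in TF, 40100 to 40900 in TE, 35200 to 43900 in SF and 56900 to 63100 in SE. Des led this sum in every group, and its markers did not move together. Pax7 was at 3067 and 4914 in TF, 1503 and 1241 in TE, 4046 and 4581 in SF, and 1743 and 1174 in SE. Vcam1 and Myf5 were also lower in both expanded groups. Des, Myod1, Cdh15 and Chrna1 were higher after expansion in both origins, and Itga7 was higher in TE than in TF and overlapped between SE and SF. Schwann markers were between 446 and 2910 in all groups. Neural markers, led by Nes, which muscle precursors also express, were 37400 to 39000 in TE and 21900 to 25500 in SE, against 1430 to 4740 in fresh cells. Terminal muscle markers were 20800 to 35600 in TF and 3380 to 5980 in SF. Led by Myh3 in the expanded cells, they were higher there, at 135000 to 143000 in TE and 198000 to 386000 in SE. The higher SE value was in replicate 2, where each Id gene and Bmp4 was lower than in replicate 1. The part of differentiated cells in the Id and Bmp4 levels was not tested.

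Other genes of the pathway were taken from a list of 54, of which 51 were tested. In TE against SE, 2 of the 51 were called higher (3.15% of all genes) and 8 lower (4.07% of all genes), in edgeR's quasi-likelihood test. The 2 genes higher were Eng, a co-receptor for BMP9 and TGFβ, and Chrdl1, a secreted BMP antagonist. Eng had 1329 and 1186 normalized counts in TF, 638.8 and 622.9 in TE, 705.7 and 1105 in SF, and 40.8 and 37.8 in SE, a TE against SE difference of 4.02 (s.e. 0.29, adjusted p = 9.27e-05). Chrdl1 was at 0 in both SE libraries and at least 5.13-fold higher in TE, and its call was lost when the fit held only the groups compared (adjusted p = 0.114, range 6.07e-08 to 0.114).

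The inhibitory Smad6, itself a BMP target, was lower in TE than in SE, at -1.61 (s.e. 0.39, adjusted p = 0.0369). Smad6 was no longer called with either TF replicate, either TE replicate or SE replicate 1 left out (adjusted p between 0.0529 and 0.278), nor with the replicate block (adjusted p = 0.0554). Atoh8, another BMP target, was at -1.33 (s.e. 0.34, adjusted p = 0.048) and was lost without either TE replicate or SE replicate 1 (adjusted p between 0.134 and 0.278) and with only the 2 groups fitted (adjusted p = 0.0538). Smad7, the other inhibitory Smad, was not called in TE against SE (-0.52, s.e. 0.29), but was lower in TE than in TF, at -1.62 (s.e. 0.29, adjusted p = 0.00323). In TE against TF, Smad6 fell by 2.01 (s.e. 0.39, adjusted p = 0.00495), with an adjusted p of 0.0563 without TE replicate 2. Msx1 (-0.83, s.e. 0.52) was not called in TE against SE.

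The Smads that carry the signal are Smad1, Smad5, Smad9 and their partner Smad4. Smad1 had means of 798.1 in TF, 647.1 in TE, 942.2 in SF and 776.6 in SE, and Smad5 of 1516, 1280, 1423 and 1297. Smad4 had means of 1767, 1574, 1492 and 1269, and none of Smad1, Smad5 and Smad4 was called in any of the 5 comparisons, in edgeR's fit or under any alternative (lowest adjusted p 0.0739, for Smad4 in TF against SF). Smad9 had means of 49.6, 13.2, 52.8 and 90.8 and was not called in TE against SE (-2.74, s.e. 0.91), although DESeq2 called it (adjusted p = 0.0196).

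Of the other receptors, Acvr1, a type I receptor also called ALK2, was lower in TE than in SE, at -0.74 (s.e. 0.19, adjusted p = 0.0425). That call was lost without either TF replicate, either TE replicate or SE replicate 1 (adjusted p between 0.096 and 0.371), with only the 2 groups fitted (0.0667) and with the replicate block (0.0657). Bmpr1b, Bmpr2, Acvrl1, Acvr2a and Acvr2b were not called in TE against SE, with differences between -0.60 and 0.92. For Acvrl1, with 8 and 4 reads in TE and SE, that difference ran from -3.86 to 4.79 with 1 library left out. Bmpr1b, the type I receptor ALK6, had 698.5 and 489.7 normalized counts in TF, 92.1 and 67.8 in TE, 57.3 and 94.65 in SF, and 165.9 and 80.7 in SE, and was 3.12 higher in TF than in SF (s.e. 0.49, adjusted p = 0.00213). Acvrl1, an endothelial type I receptor, was at -7.62 in TE against TF (s.e. 0.95, adjusted p = 0.000367) and at -8.12 in SE against SF (s.e. 1.02, adjusted p = 0.000227), and the sum of endothelial markers was lower in expanded cells too. The TE against TF value of Acvrl1 was -6.60 without TE replicate 1 and -12.38 without TE replicate 2, and the SE against SF value was -7.04 and -11.99 without SE replicates 1 and 2, since 1 library of each expanded group had no read. Of the 6 other receptors, 4 were called lower in TE against TF (16.2% of all genes), Acvrl1, Bmpr1b (-2.84), Acvr1 (-0.83) and Bmpr2 (-0.71). The calls of Acvr1 and Bmpr2 were lost without any 1 of the TF and TE libraries. In SE against SF, 2 were called lower (19.8% of all genes), Acvrl1 and Bmpr2 (-0.58), and that of Bmpr2 was lost under several alternatives.

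Among the 15 secreted antagonists and chordin proteases, 8 were called lower in TE against TF (16.2% of all genes), and 7 lower (19.8% of all genes) and 2 higher (20.9% of all genes) in SE against SF. Tll1, a protease that cleaves chordin, was at -3.60 in TE against SE (s.e. 0.62, adjusted p = 0.00803), with an adjusted p of 0.065 without TE replicate 2 and of 0.0784 with only the 2 groups fitted. Nog, the antagonist noggin, had 267.5 and 270.7 normalized counts in TF, 397.6 and 422.5 in TE, 15.3 and 37.6 in SF, and 258.2 and 182.8 in SE. It was higher in TF than in SF by 3.48 (s.e. 0.47, adjusted p = 0.00103) and rose in SE against SF by 3.23 (s.e. 0.47, adjusted p = 0.000537), and these values were 4.33 and 4.07 without SF replicate 2. Nog was not called between TE and SE, at 0.92.

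**Figure D4:**
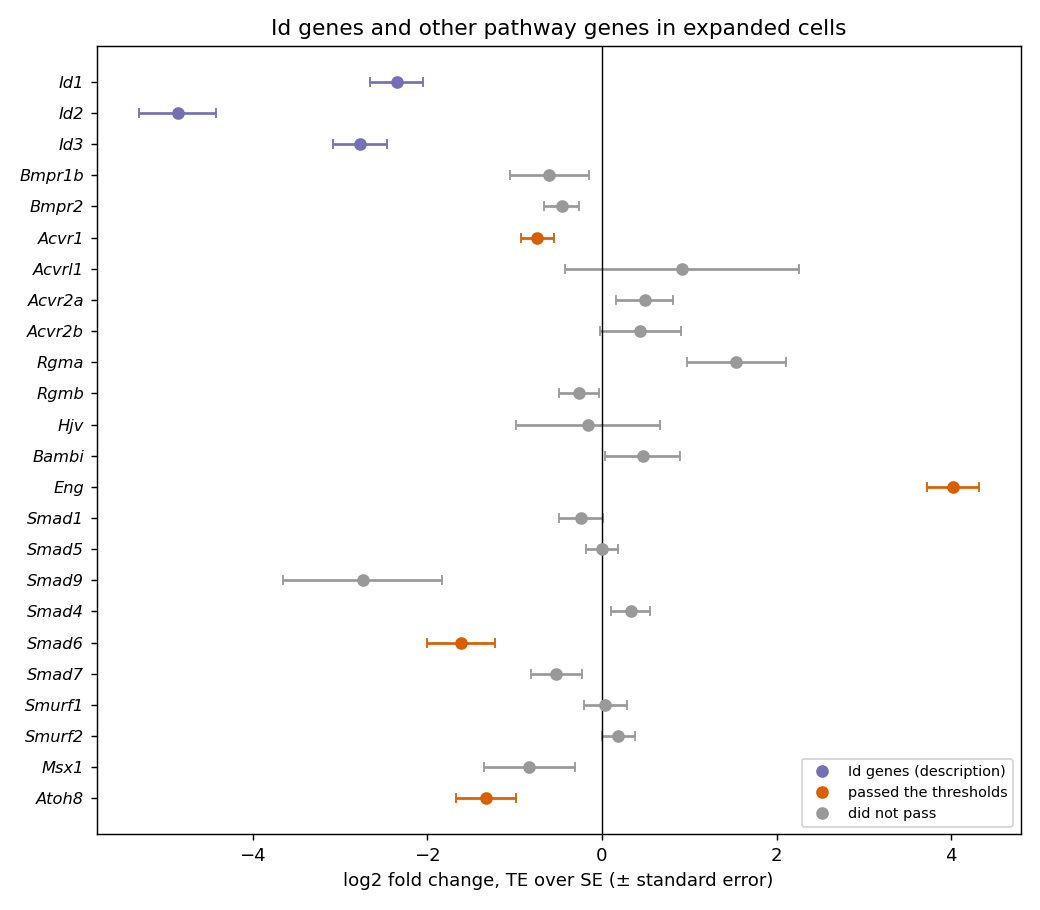
Log2 fold change of TE over SE for 3 Id genes (purple, a description) and for the receptors, co-receptors, Smads and other targets of the wider list, with the standard error of the fit as bars. Orange points passed an adjusted p of 0.05 and a log2 fold change of 0.32 and grey points did not. Eng lies to the right of all others (4.02), and Smad1, Smad5 and Smad4 lie near 0. Smad6, Atoh8, Smad9, Msx1 and Acvr1 are among the genes on the side of the Id genes. Of these, Smad9 and Msx1 did not pass, and the calls of Smad6, Atoh8 and Acvr1 were lost with some libraries left out. Genes with a group at the floor of 3 counts, Id4 among them, are left out.

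Partners of the Id proteins were part of the wider list. The E protein genes Tcf3 and Tcf12 differed by 0.01 (s.e. 0.24) and 0.09 (s.e. 0.18) between TE and SE, and Tcf4 by -0.66 (s.e. 0.17), which was not called (adjusted p = 0.0506). Tcf4 was called with DESeq2 (adjusted p = 0.000317), with median-ratio scaling (0.0367) and without either SF replicate (0.0447 and 0.0376). Myod1, the myogenic factor that pairs with E proteins, had 637.5 and 930.2 normalized counts in TF, 4826 and 4819 in TE, 6767 and 8837 in SF, and 10500 and 10700 in SE, and was lower in TE than in SE, at -1.11 (s.e. 0.23, adjusted p = 0.019). That call was lost without either TE replicate (adjusted p of 0.151 and 0.154). Myog, a marker of differentiation, had 11170 and 11840 normalized counts in TE and 3993 and 13510 in SE, so the groups overlapped, and was not called (0.41), but it was called without SE replicate 2 (1.56, adjusted p = 0.000747). Myf5 was low in both expanded groups, with means of 103.9 in TE and 96.7 in SE against 1084 in TF and 1602 in SF.

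Across the 8 libraries, the profile most like that of Bmp4 was sought among the 12678 genes whose mean reached 50 normalized counts, as the root mean square difference of centered log2 levels. The nearest genes were Perp (0.483), Nfib (0.709), Samd9l (0.782), Mycn (0.784) and Eng (0.833). Each was low in SE, with Mycn at 0 and Perp at 3.58 and 0 normalized counts in the SE libraries, and the values of Nfib were 163.8 and 193.9 in SE against 2739 to 8451 elsewhere. Bmp6 ranked 103 by this measure (1.54), ahead of Bmp7 (rank 1190), Bmp5 (4401) and Bmp2 (12280). The Id genes ranked between 9730 (Id3) and 12128 (Id2). For Id1 the nearest genes were Mtmr11 (0.198), Ecm1 (0.267), Smad9 (0.338), Tmem184b (0.345) and Epb41l1 (0.347), and Id3 ranked 749 (0.813) and Id2 ranked 2704 (0.989). These likenesses rest on 8 libraries of 4 groups and are given as a description.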

How the data were processed

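RNA from 2 biological replicates of each of 4 groups of mouse skeletal myogenic cells was sequenced from both ends after library preparation with the SMARTer Stranded Total RNA-Seq Pico kit, and the strand setting of the counting is not given in the sources used here. The authors deposited 1 table of estimated counts for 24980 gene symbols, not normalized. The submitters' processing notes name CASAVA, kallisto 0.44.0 and the builds GRCm38 and mm10, and no other step is given in the sources used here. Of the values of a library, 74.4% to 84.4% were whole numbers. Estimated counts can divide reads among similar transcripts. No row lacked a gene name, and 1 listed gene, Hjv, stood under an older symbol.

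The 10 genes and all gene lists were chosen with earlier results of these data known. Groups and replicate numbers came from the labels. Counts were rounded, filtered with edgeR's filterByExpr (17582 genes kept), scaled by TMM and fitted once over the 4 groups by quasi-likelihood in edgeR, and p-values were adjusted over all genes after Benjamini and Hochberg. With 2 biological replicates a group, they measure only the spread between these libraries. The common dispersion was 0.233. The fit was also run on simulated counts in which genes were changed in TE alone. That setting is unlike these libraries, and nothing is drawn from it. Calls used an adjusted p under 0.05 and a log2 fold change beyond 0.32. Levels are counts over the median-ratio size factor of the library (DESeq2). A group with at most 3 counts in each library was treated as at the floor, and intervals and floors cover counting error only. Levels per kb used the union of GENCODE M21 exons, and promoter windows came from RefSeq (GRCm38.p6). The ribosomal RNA precursor Rn45s took 7.99% to 21.3% of the counts of a library. No pair of replicates agreed within counting noise, as 1 library deposited under 2 labels would (chi-square per degree of freedom 11.7 to 87.2).

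The genes named by rule were the 10 members, the up to 6 called genes of the wider list with the largest change in each comparison, its receptors, Smads and Id partners, and the 5 genes nearest in profile to Bmp4 and to Id1. Genes and comparisons named beyond this rule, such as Smad7, Msx1, Gdf6 and Hjv, were chosen after their values were seen. The values of 1 gene of the wider list are not reported here, and it remains in the counts of calls. The alternatives tried were a fit by DESeq2, a fit to the 2 groups of a comparison alone, a replicate block, each library left out, median-ratio scaling, all genes kept whatever their counts, and TMM-scaled CPM for the order of levels. The software was edgeR 4.0.16 with limma 3.58.1, and DESeq2 1.42.0, under R 4.3.3.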

Additional observations from a re-analysis of the deposited data

Results flagged for a closer look

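Each gene here differed between teratoma-derived and satellite cells in how its level moved with expansion. Values are log2 differences of the effects of expansion, TE against TF minus SE against SF, from edgeR's quasi-likelihood test with Benjamini-Hochberg adjustment over all genes. They were taken over the wider BMP list, of which 3 of 51 tested genes were called higher (4.7% of all genes) and 13 lower (9.62% of all genes). Id2 was the 1 member for which every TE library lay below every TF library while every SE library lay above every SF library, with a difference of -5.08 that was not tested because the gene was chosen for its pattern.

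The effect of expansion was higher in teratoma-derived cells for the co-receptor gene Eng, at 3.40 (adjusted p = 0.000638), and for Myod1, at 2.05 (adjusted p = 0.00359). For the antagonist gene Chrdl1 it was also higher (adjusted p = 0.00248), with no size because SE was at 0. These calls held with each library left out.

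Among genes with the lower effect there, the receptor gene Bmpr1b was at -3.72 (adjusted p = 0.00605), the protease gene Tll1 at -4.24 (adjusted p = 0.00734) and Myog at -6.58 (adjusted p = 0.000832). These 3 calls also held with each library left out, although Bmpr1b was at -3.10 without SE replicate 1 and Myog at -5.45 without SE replicate 2. Myog rose with expansion in both origins, by 3.11 in TE against TF and by 9.69 in SE against SF. Its fresh levels differed, at 1328 and 1449 normalized counts in TF and 8.92 and 14.8 in SF.

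The other lower genes lost the call with at least 1 library left out. The antagonist gene Nog was at -2.56 and was lost without either TE replicate (adjusted p of 0.0743 and 0.0851), with a value of -3.41 without SF replicate 2. Fst was at -2.09 and was lost without either TF replicate or TE replicate 1 (0.0525 to 0.101), with a value of -2.90 without SF replicate 2. Grem1 had an adjusted p of 0.0347, with no size because SF was at the floor, and was lost without TF replicate 2, either TE replicate or SF replicate 2 (0.0751 to 0.133) and with the replicate block (0.0538). Smad6 was at -2.64 and was lost without TE replicate 2 (0.0583). Msx1 was at -3.06 and was lost without TF replicate 2 or TE replicate 1 (0.074 and 0.0762), with a value of -2.38 without SE replicate 1. Atoh8 was at -1.72 and was lost without TF replicate 2, either TE replicate, SF replicate 1 or SE replicate 1 (0.0759 to 0.148), and with median-ratio scaling (0.056). Of the E protein genes, Tcf3 was at -1.14 and was lost without any of TF1, TF2, TE1, TE2, SF1 and SE1 (0.0854 to 0.18), with median-ratio scaling (0.0692) and with the replicate block (0.0624). Tcf4 was at -1.35 and was lost without either TE replicate (0.0505 and 0.0627). Tcf12 was at -0.99 and was lost without either TF replicate, either TE replicate or SF replicate 1 (0.0517 to 0.175).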

How the results depend on the processing

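With 2 libraries in a group, counts of calls depended most on which library was left out. Leaving out each library once, the number of all genes called was 2739 to 5439 for TE against TF (4581 with all libraries), 2639 to 5072 for TF against SF (4261), 653 to 1698 for TE against SE (1268) and 1467 to 2996 for the difference between both effects of expansion (2517). The number of the 10 genes called was 1 to 3 for TF against SF (3, with 1 without TF replicate 2 or SF replicate 1) and 5 to 8 for the difference between effects (8, with 5 without TF replicate 2). For the wider BMP list the number was 9 to 18 for TF against SF (15, with 9 without TF replicate 2), 4 to 11 for TE against SE (10, with 4 without either TE replicate) and 8 to 19 for the difference between effects (16, with 8 without TE replicate 1 and 10 without TF replicate 2 or TE replicate 2). For TE against SE, 2260 genes were called with no filter on low counts and 2163 with DESeq2, and 5 of the wider list with only the 2 groups compared. The cause of these moves was not tested.

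Of the counts of calls under an alternative, 172 stayed within 1.5 times the value reported and 20 did not. Of the other values, nearly all fold changes of single genes, 158 lost a call, 18 gained one, 8 fold changes of the 10 genes moved by more than the SD between replicates and 2315 did none of these, and no called gene changed sign. Among the 10 genes, estimates that changed sign without being called were Bmpr1a in TE against TF and TE against SE, Bmp4, Id1 and Id2 in TF against SF, and Bmp7 for the difference between effects. DESeq2 moved the split of all genes for SE against SF to 3366 higher and 4870 lower, from 3677 and 3475, and that for the difference between effects to 1544 and 1975, from 826 and 1691. For TF against SF the split of 2655 and 1606 was 2510 and 2643 with DESeq2.

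Replicate numbers in the labels did not pair the libraries. The correlation of the deviations of same-numbered libraries from their group means was -0.03 to 0.08 over the 6 pairs of groups. With the replicate block, 8, 9, 3, 7 and 8 of the 10 genes were called in TE against TF, SE against SF, TF against SF, TE against SE and the difference between effects, as without it. The wider list then had 8 calls in TE against SE in place of 10 and 15 in place of 16 for the difference between effects.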

Other observations

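Between fresh teratoma-derived and fresh satellite cells, 10 of the 51 tested genes of the wider BMP list were called higher in TF (15.1% of all genes) and 5 lower (9.13% of all genes), in edgeR's quasi-likelihood test. The ligand gene Gdf6 had means of 193.5 ± 22.1 normalized counts in TF and 33.8 ± 18.8 in SF (SD, n = 2), a log2 difference of 2.68 (s.e. 0.64). It lost the call without SF replicate 2 (adjusted p = 0.0564), and the difference was 3.35 without SF replicate 1. The antagonist gene Grem1 had 1 read in SF and a mean of 73.7 ± 12.4 normalized counts in TF, a ratio of 123 with a 95% counting interval of 21.6 to 4890. The antagonist gene Chrdl2 was lower in TF, with means of 367.6 ± 234 in TF and 4884 ± 778 in SF, and DESeq2 did not call it (adjusted p = 0.153). Without TF replicate 2 the log2 difference of Chrdl2 was -4.44 in place of -3.57.

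Hjv, a co-receptor gene for BMP6 that muscle fibers express, had means of 74.0 ± 1.92 normalized counts in TF, 836.5 ± 107 in TE, 33.1 ± 46.8 in SF and 946.6 ± 599 in SE. It was called higher in TE against TF and in SE against SF, and the first call was lost without TF replicate 2 (adjusted p = 0.0516) and with DESeq2 (adjusted p = 0.114). The second, a log2 difference of 5.07, was 13.04 without SF replicate 1, which held all SF reads of Hjv, 4.07 without SF replicate 2 and 4.22 without SE replicate 2. Bmp15 had 9 reads in 1 SF library and none in the others, and Bmp10 had none in any library.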
